A study of Mus musculus with 23 samples.

Results

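Genes of the cell cycle and of DNA replication were followed through developing and adult glands of the mouse eye region. The set held 50 genes out of the 20887 genes that the array could name, 18 of them acting in S phase, 27 in mitosis and 5 as regulators of G1. Each gene was found through the RefSeq accession of its probes, and a gene with several probes was read from the one with the highest mean level. Of the 50 genes, 48 were among the 16323 genes bright enough to be tested. The S phase genes were Pcna, Mcm2 to Mcm7, Cdc6, Cdc45, Cdt1, Gins1, Gins2, Rrm1, Rrm2, Tyms, Ccne1, Ccne2 and E2f1. The mitosis genes were Mki67, Top2a, Ccna2, Ccnb1, Ccnb2, Cdk1, Cdc20, Cdc25c, Plk1, Aurka, Aurkb, Bub1, Bub1b, Mad2l1, Ttk, Birc5, Cenpa, Cenpe, Cenpf, Kif11, Kif20a, Kif23, Nusap1, Tpx2, Prc1, Foxm1 and Ube2c, and the G1 regulators were Ccnd1, Ccnd2, Cdkn1a, Cdkn1b and Cdkn2c. Ccne2, a cyclin that acts at the entry into S phase, was well above background on no array. Aurkb, the kinase of the chromosomal passenger complex, was well above background on 1 array each of lacrimal gland epithelium, lacrimal gland mesenchyme and harderian gland epithelium and on no other array, and neither gene was tested.

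The study measured gene expression of the lacrimal gland (LG), which makes the watery part of the tear film, with the harderian gland (HG), a lipid-secreting gland of the orbit, and the eyelid beside it. Epithelium and mesenchyme of LG, HG and eyelid (dissected with conjunctiva) were separated at embryonic day 16.5 (E16.5), with 3 arrays for each of the 6 tissues. Adult glands were taken whole at 7 weeks, with 2 arrays for LG and 3 for HG. All mice had the background strain B6/CL, and the labels name no transgene or treatment in any group. The labels do not say whether replicates came from separate animals, litters or pools, so p-values here measure only the spread between these samples, which may be technical.

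Dividing cells copy their DNA in S phase and part the copies in mitosis. In G1, D-type cyclins and their kinases inactivate the retinoblastoma protein, which frees E2F factors to switch on replication genes, and mitotic genes follow later under B-MYB and FOXM1. In resting cells the DREAM complex holds both sets of genes down, and the inhibitors Cdkn1a, Cdkn1b and Cdkn2c block the G1 kinases. Lacrimal and harderian glands grow before birth as epithelial buds that lengthen and branch into the mesenchyme around them, whereas secretory cells of adult glands divide rarely.

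The promoters of the S phase and mitosis genes differ in how often they carry certain short motifs, and a few promoters are shown. Whether these motifs bear on the levels in the arrays was not tested. RefSeq promoters (build GRCm38.p6, 250 bases before to 50 bases after each start) were at hand for 38 of the 50 genes, with 42 promoters. An E2F motif (TTTCCCGC, TTTGGCGC, TTTCGCGC or TTTGCCGC, on either strand) was found in 6 of 15 promoters of S phase members (40%), in 1 of 22 of mitosis members (4.55%) and in 2.26% of all 32851 promoters. The cell cycle homology region, CHR (TTTGAA or TTCGAA, on either strand), was found in 17 of 22 promoters of mitosis members (77.3%), in 3 of 15 of S phase members (20%) and in 19.2% of all promoters. CHR is bound by the MuvB core of the DREAM and FOXM1 complexes, and the CCAAT box beside it by NF-Y. A CCAAT box on either strand lay in 19 promoters of mitosis members (86.4%), 10 of S phase members (66.7%) and 37.4% of all promoters, and both motifs together lay in 77.3%, 20% and 7.52%. Each match was counted, overlapping ones included, and a match describes letters and not a bound site.

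The 250 bases before the start are printed 5′ to 3′ on the strand of the gene for a pair of S phase members, Mcm7 (chr5:138171884-138172133, minus strand) and Mcm6 (chr1:128359706-128359955, minus strand), with E2F motifs in capitals. They encode subunits of the MCM helicase that unwinds DNA for replication.
Mcm7: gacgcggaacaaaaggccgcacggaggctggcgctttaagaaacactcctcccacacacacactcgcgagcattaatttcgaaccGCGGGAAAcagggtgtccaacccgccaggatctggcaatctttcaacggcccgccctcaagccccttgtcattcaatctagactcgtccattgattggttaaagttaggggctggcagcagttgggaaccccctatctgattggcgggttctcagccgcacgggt
Mcm6: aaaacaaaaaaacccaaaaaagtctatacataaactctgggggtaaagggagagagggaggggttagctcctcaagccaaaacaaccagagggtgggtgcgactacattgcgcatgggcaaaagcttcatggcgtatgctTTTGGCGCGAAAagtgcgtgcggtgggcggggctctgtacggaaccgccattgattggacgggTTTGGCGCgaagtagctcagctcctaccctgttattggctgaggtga
For the mitosis members Ccnb2, a B-type cyclin (chr9:70421555-70421804, minus strand), and Top2a, the topoisomerase that untangles chromosomes (chr11:99024190-99024439, minus strand), capitals mark CHR and CCAAT motifs. Top2a held 4 CHR and 6 CCAAT matches in this stretch.
Ccnb2: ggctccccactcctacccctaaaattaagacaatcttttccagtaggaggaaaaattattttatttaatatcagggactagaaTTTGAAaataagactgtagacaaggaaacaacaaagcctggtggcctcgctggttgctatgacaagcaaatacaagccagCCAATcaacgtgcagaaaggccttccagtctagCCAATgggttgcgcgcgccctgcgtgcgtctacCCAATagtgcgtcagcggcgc
Top2a: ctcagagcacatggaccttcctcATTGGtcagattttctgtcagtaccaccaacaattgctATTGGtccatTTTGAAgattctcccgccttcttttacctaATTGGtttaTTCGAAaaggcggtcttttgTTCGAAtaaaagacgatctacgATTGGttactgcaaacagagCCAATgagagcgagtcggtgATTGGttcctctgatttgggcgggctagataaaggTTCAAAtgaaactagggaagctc
Cdk1, the kinase that drives mitosis (chr10:69352913-69353162, minus strand), was the only mitosis member among those matched whose promoter held an E2F motif, and capitals mark all 3 motif kinds.
Cdk1: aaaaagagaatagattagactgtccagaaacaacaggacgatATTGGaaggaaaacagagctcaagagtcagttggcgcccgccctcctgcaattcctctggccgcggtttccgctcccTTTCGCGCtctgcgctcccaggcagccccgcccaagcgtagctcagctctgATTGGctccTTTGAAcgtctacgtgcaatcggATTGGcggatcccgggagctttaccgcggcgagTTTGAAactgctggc

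A level below is log2 of the scanner's processed signal minus the 75th percentile of its array, so a difference of 1 is a 2-fold difference, and ± after a difference is its standard error. Levels of different genes come from different probes and are not compared. A gene was called higher or lower where its adjusted p was under 0.05, and the share of all 16323 genes called the same way is given beside the first count of members in each comparison. Between 42.4% and 64.6% of spots were well above background on an array, with 50.3% and 42.4% on the 2 adult LG arrays. All 15 epithelial markers were higher and all 15 mesenchymal markers lower in epithelium than in mesenchyme in LG, HG and eyelid. The mesenchymes were not alike in composition. The mean level of epithelial markers was 0.42 in eyelid mesenchyme (1.23 on replicate 3), -1.78 in LG and -1.66 in HG mesenchyme. That of skeletal muscle markers was 2.47 in eyelid, -3.98 in LG and -1.69 in HG mesenchyme. The part of these cells in the eyelid comparisons was not tested. The mean level of reference genes, such as Actb, Gapdh and Tbp, was 5.12 in LG, 5.13 in HG and 4.74 in eyelid epithelium. It was 4.55 in LG, 4.6 in HG and 4.6 in eyelid mesenchyme, and 4.83 in adult LG and 5.31 in adult HG. Since the samples are bulk tissue, a smaller share of dividing cells and less RNA of these genes per cell cannot be told apart.

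The S phase and mitosis members had their highest levels in the 2 embryonic gland epithelia. Of 43 such members tested, 40 had LG and HG epithelium as the 2 highest of the 6 embryonic group means, and 42 had both adult glands below every embryonic mean. Averaged over the 17 S phase members, the level lay between 1.37 and 1.48 on the LG epithelium arrays and between 1.30 and 1.52 on those of HG epithelium. It lay between 0.90 and 1.05 in LG mesenchyme, 0.27 and 0.29 in HG mesenchyme, 0.03 and 0.25 in eyelid epithelium, and 0.46 and 0.53 in eyelid mesenchyme. In the adult glands it was between -2.52 and -2.50 (LG) and between -2.40 and -2.06 (HG). LG and HG epithelium overlapped, and every other embryonic group stood apart from its neighbours without overlap. For the 26 mitosis members the same order held at the top and bottom, with LG epithelium at 2.12 ± 0.12 and HG epithelium at 2.16 ± 0.14 (mean ± SD, n = 3) and adult LG at -4.21 ± 0.37 (SD, n = 2).

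**Figure D1:**
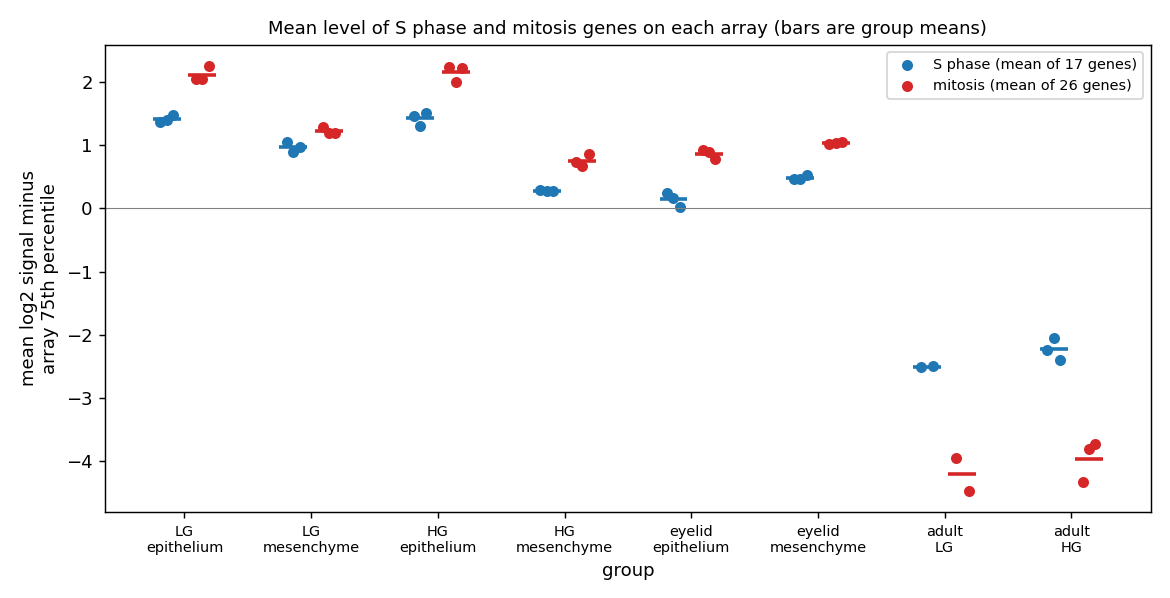
Mean level (log2 signal minus the array's 75th percentile, vertical axis) of 17 S phase genes in blue and 26 mitosis genes in red on each of 23 arrays, by group on the horizontal axis, with bars at group means. The gland epithelia lie highest in both colours and the adult glands lowest. The colours rest on different probes, so their heights are to be compared between groups and not with each other.

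The 48 genes are shown one by one in the heat map, where each gene is set against its own embryonic mean. Within a group the spread was small in the embryo: the median SD over S phase members ranged from 0.07 in HG mesenchyme to 0.18 in LG epithelium. In the adult glands it was 0.24 (LG) and 0.34 (HG), and for mitosis members 0.50 and 0.45. Cenpf, a kinetochore protein, had the largest SD of any tested member in any group (2.07 in adult HG). Its level was -3.88, -3.32 and -0.57 on the 3 HG mesenchyme arrays and -6.02, -6.33 and -2.59 on the 3 adult HG arrays, with replicate 3 high in both groups, and it was called in no comparison of embryonic tissues.

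**Figure D2:**
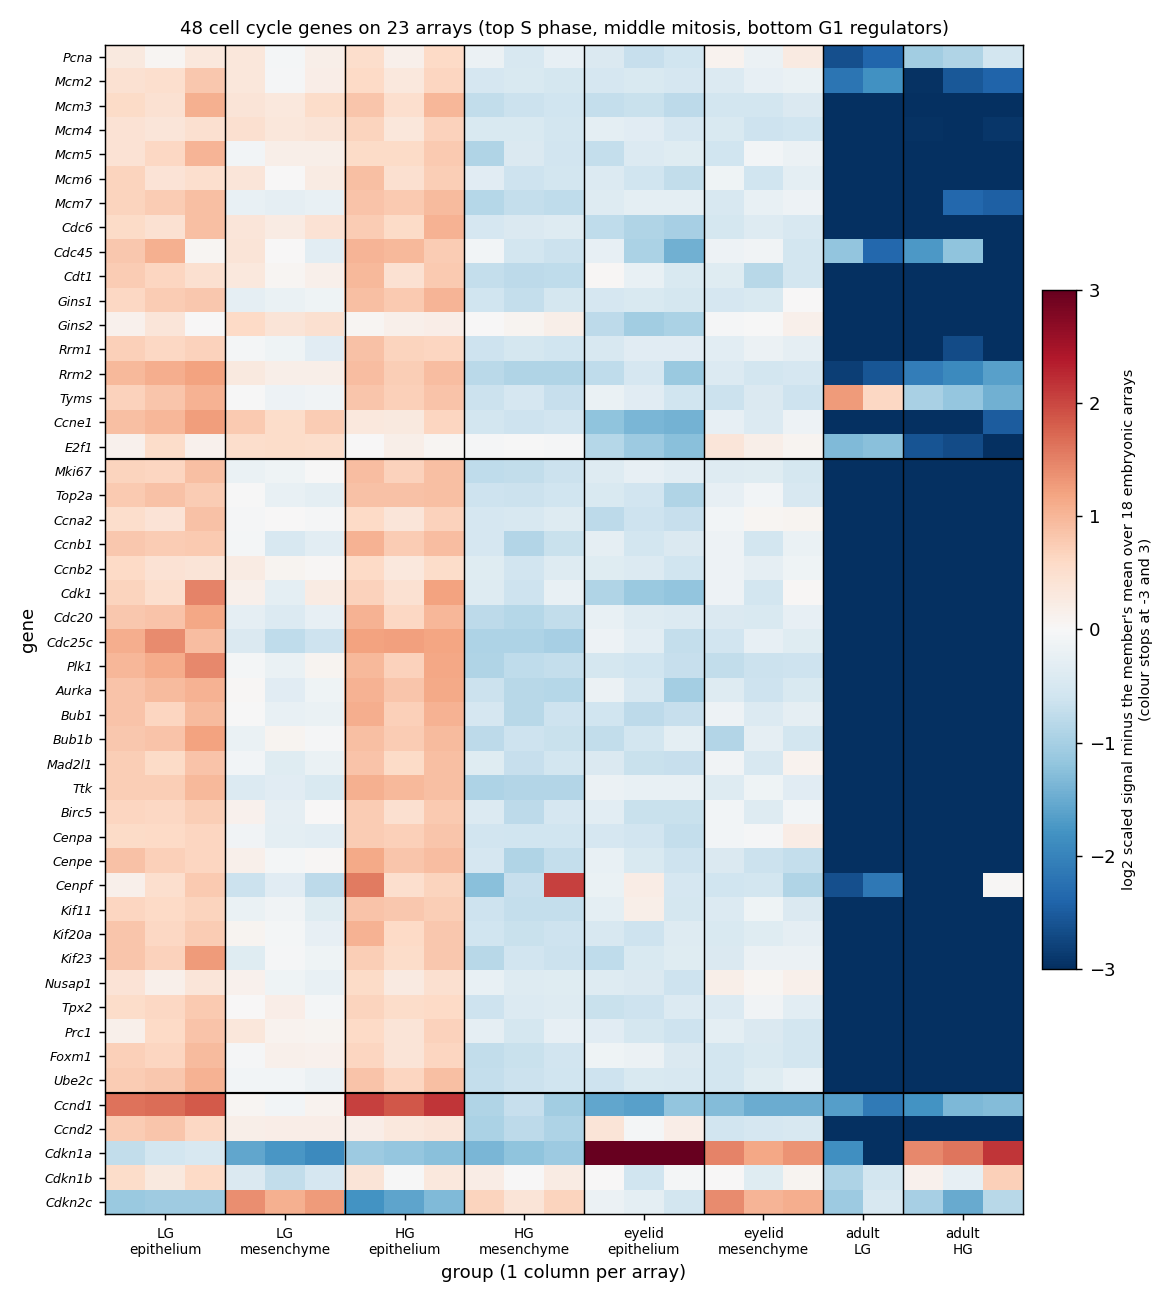
Level of each of 48 genes (rows) on each of 23 arrays (columns, grouped by tissue) minus the gene's mean over the 18 embryonic arrays, in log2, with colour stopping at -3 and 3. Red columns for LG and HG epithelium and dark blue columns for the adult glands run through the S phase and mitosis blocks, while the G1 regulators at the bottom each have a pattern of their own.

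HG epithelium was above HG mesenchyme for nearly all S phase and mitosis members. Of 48 members, 42 were higher in the epithelium (29.8% of all genes tested) and 1 was lower (28.1% of all genes). S phase members were higher in 15 of 17 cases with a median difference of 1.28, and mitosis members in 25 of 26 with a median of 1.45, beside a median of 0.03 over all genes. Rrm2, Mcm7 and Gins1 led the S phase members, and Cdc25c, Ttk and Aurka the mitosis members.

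Rrm2, the small subunit of the reductase that makes deoxynucleotides, was at 5.37, 5.17 and 5.37 on the HG epithelium arrays and at 3.62, 3.52 and 3.54 on the HG mesenchyme arrays. The groups did not overlap, and the difference was 1.75 ± 0.15 (adjusted p = 1.38e-08). Mcm7 was at 5.74, 5.67 and 5.85 against 4.03, 4.18 and 4.12, a difference of 1.65 ± 0.14 (adjusted p = 2.22e-08). Gins1, a subunit of the GINS complex that joins the MCM helicase, was at 3.34, 3.24 and 3.48 against 1.85, 1.74 and 1.92. All epithelial arrays were above all mesenchymal arrays for these S phase genes, and the Gins1 difference was 1.51 ± 0.18 (adjusted p = 1.19e-06).

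Cdc25c, a phosphatase that activates Cdk1 at the entry into mitosis, was at 0.81, 0.82 and 0.78 in HG epithelium against -1.34, -1.33 and -1.39 in HG mesenchyme, 4.46-fold higher (difference 2.16 ± 0.21, adjusted p = 6.49e-08). Ttk, the kinase of the spindle checkpoint, was at -0.48, -0.59 and -0.64 against -2.47, -2.43 and -2.44 (1.87 ± 0.14, adjusted p = 2.58e-09). Aurka, a kinase of the spindle poles, was at 4.5, 4.28 and 4.59 against 2.80, 2.61 and 2.59 (1.79 ± 0.25, adjusted p = 5.81e-06). None of the 3 overlapped between compartments. At the low end of the called members were Pcna, the sliding clamp (0.72 ± 0.17), Ccne1, a cyclin of S phase entry (1.01 ± 0.18), and Mcm2 (1.01 ± 0.16), and among mitosis members Nusap1, Prc1 and Ccnb2 (0.77 to 0.93).

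Gins2 (0.06 ± 0.31), E2f1, the factor that switches on replication genes (0.09 ± 0.14), and Cenpf (0.88 ± 0.79) were not called. Mesenchymal marker levels were higher in HG epithelium replicates 2 and 3 (means of 2.41 and 2.68) than in replicate 1 (1.63). Within the 3 slides, which hold 1 replicate of each tissue, the S phase median was 1.26, 1.09 and 1.38 and the mitosis median 1.55, 1.30 and 1.46.

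In LG the epithelium was above the mesenchyme as well, for most mitosis members and a minority of S phase members. Of 48 members, 29 were higher (32.1% of all genes) and 1 lower (26.5%). Mitosis members were higher in 19 of 26 cases, with a median of 0.89, and S phase members in 6 of 17, with a median of 0.42, beside 0.11 over all genes. The mean level of reference genes was also higher in LG epithelium, at 5.12 against 4.55 in LG mesenchyme. How far such a shift enters the S phase difference was not tested. The 6 S phase genes were Mcm7 (1.02 ± 0.14), Tyms, the enzyme that makes thymidylate (0.95 ± 0.17), Gins1 (0.94), Rrm2 (0.88), Rrm1 (0.86) and Mcm2 (0.42). Mcm3, Mcm4, Mcm5 and Mcm6, further subunits of the same helicase, had differences of 0.29, 0.02, 0.60 and 0.32, none of them called. The mitosis members not called were Ccna2, Ccnb2, Cenpe, Cenpf, Nusap1, Tpx2 and Prc1. With quantile normalization the split of 29 higher and 1 lower was 24 and 4.

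Mcm7 was at 5.56, 5.65 and 5.80 in LG epithelium and at 4.66, 4.62 and 4.67 in LG mesenchyme, without overlap. Mcm6 was at 6.90, 6.63 and 6.74 against 6.59, 6.25 and 6.47, so that the groups almost met. Among mitosis members Cdc25c differed most (1.74 ± 0.21, adjusted p = 8.24e-07), at 0.68, 1.01 and 0.52 against -0.83, -1.16 and -1.03. Plk1, a kinase of mitotic entry (1.25 ± 0.26), and Cdc20, the activator of the anaphase complex (1.25 ± 0.29), came next, and Foxm1, Birc5 and Kif20a were the least of the called (0.69 to 0.81). Within the 3 slides the S phase median was 0.31, 0.45 and 0.49 and the mitosis median 0.81, 0.81 and 1.05.

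S phase members stood high relative to mitosis members in LG mesenchyme. Subtracting the mean over mitosis members from the mean over S phase members gave -0.29 to -0.23 on the 3 LG mesenchyme arrays, -0.60 to -0.40 in HG mesenchyme, -0.58 to -0.54 in eyelid mesenchyme, and -0.78 to -0.64 in LG epithelium. LG mesenchyme thus had the highest S phase level relative to mitosis of the 6 embryonic groups, without overlap. The value itself depends on the probes, and only its shifts between groups can be read.

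The compartment difference of HG was tested against that of LG directly. It was larger for 5 members (4.03% of all genes were called higher and 4.66% lower): Ccnd1 (by 1.22 ± 0.23), Mcm3 (1.14 ± 0.23), Mcm4 (1.03 ± 0.16), Rrm2 (0.87 ± 0.21) and Ttk (0.65 ± 0.19), and no member had a called smaller difference. With the replicate number as a block the count was 10, of which 9 were higher and 1 lower, and the added members were Cdt1, Mcm6, Mcm7, Pcna and Cdkn1b. The split was 11 higher and 2 lower with quantile normalization and with normexp background. The count ran from 0 with median scaling (4 at an unadjusted p under 0.05 by limma) to 22 with only these 4 groups in the fit.

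In the eyelid the members did not follow the epithelium. Only 2 were higher in eyelid epithelium than in eyelid mesenchyme (25.7% of all genes) and 9 were lower (25.5%), with medians of -0.22 for S phase and -0.13 for mitosis members. Both counts are under the share of all genes called the same way. The S phase members that were lower were E2f1 (-1.27 ± 0.14, adjusted p = 4.96e-07), Ccne1 (-1.06 ± 0.18), Gins2 (-0.96 ± 0.31) and Pcna (-0.64 ± 0.17). E2f1 was at 0.96, 0.72 and 0.57 in the epithelium and at 2.18, 1.99 and 1.90 in the mesenchyme, with no overlap. Of the mitosis members Cdk1 (-0.84 ± 0.33), Cenpa, the centromeric histone (-0.64 ± 0.22), Mad2l1 (-0.44 ± 0.16) and Bub1 (-0.41 ± 0.15), both of the spindle checkpoint, were lower, and Mad2l1 overlapped between the groups. The other probes of Cdk1 gave 0.12 and -0.53. The count of 11 fell to 7 without replicate 3 of either eyelid group and to 5 with median scaling.

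Tested against the eyelid, the compartment difference was larger in HG for 42 members (19.5% of all genes) and smaller for 1 (16.9%), and larger in LG for 29 (20.6%) and smaller for 1 (16.7%). These tests share the eyelid arrays. For HG the S phase members with the largest excess were Ccne1 (2.06 ± 0.26), Rrm2 (2.06 ± 0.21) and Cdc45 (1.96 ± 0.70), and the mitosis members Cdc25c (2.16 ± 0.29), Cdk1 (2.04 ± 0.46) and Bub1 (2.02 ± 0.22). The other probes of Cdk1 gave 0.96 and 1.83 for HG. For LG the largest called were Ccne1 (1.41 ± 0.26), Rrm2 (1.19 ± 0.21) and Gins1 (1.12 ± 0.26), and Cdc25c (1.75 ± 0.29), Cdk1 (1.67 ± 0.46) and Cenpa (1.49 ± 0.31).

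**Figure D3:**
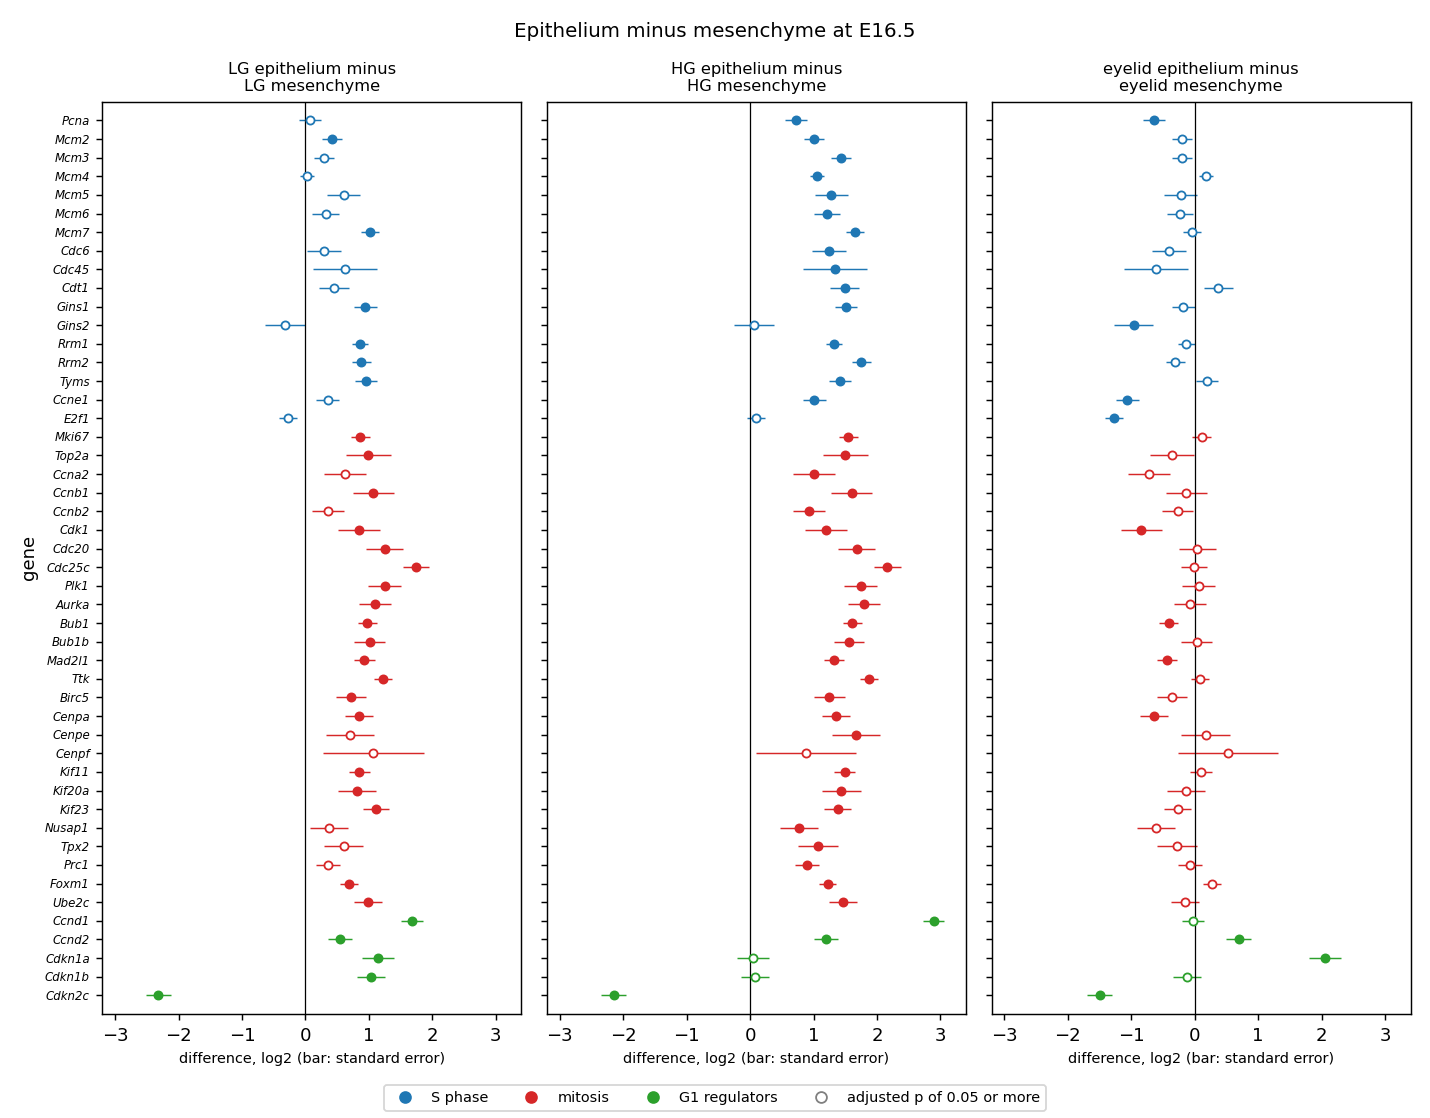
Difference between epithelium and mesenchyme at E16.5 (horizontal axis, log2, bars are standard errors) for each of 48 genes (rows) in LG, HG and eyelid, with S phase genes in blue, mitosis genes in red and G1 regulators in green, and filled points for adjusted p under 0.05. Nearly all blue and red points lie right of 0 in HG, the red ones lie further right than many blue ones in LG, and both lie about 0 in the eyelid.

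The epithelia of the 2 glands differed in 1 member, and both stood above eyelid epithelium in nearly all. Between LG and HG epithelium 1 of 48 members was called higher (2.97% of all genes) and 0 lower (3.39%) by limma, with medians of -0.08 for S phase and -0.05 for mitosis members and 4 members higher and 0 lower at an unadjusted p under 0.05. The member called was Ccne1, at 4.62, 4.71 and 4.98 in LG epithelium and 4.04, 4.02 and 4.36 in HG epithelium (0.63 ± 0.18, adjusted p = 0.0447), and its call was lost without any array of LG epithelium and without replicate 1 or 2 of HG epithelium (0 members called each time, 2 or 3 at an unadjusted p under 0.05 by limma). Differences of the other 47 ran from -0.43 (Cenpf) to 0.58 (Cdkn1a).

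Against eyelid epithelium, LG epithelium was higher in 45 members (27.2% of all genes) and lower in 2 (18.3%), and HG epithelium was higher in 43 (26.6%) and lower in 2 (18%). All 17 S phase members and 25 of 26 mitosis members were higher in both glands, Cenpf being the exception. The medians were 1.18 and 1.23 in LG and 1.18 and 1.28 in HG, beside 0.10 and 0.11 over all genes. Both comparisons share the 3 eyelid epithelium arrays. Ccne1 differed most among S phase members in LG (2.38 ± 0.18, adjusted p = 4.58e-09), where it was at 2.51, 2.35 and 2.31 in eyelid epithelium, and Rrm2 followed (1.88 ± 0.15). In HG the widest were Cdc45 (1.80 ± 0.50), Ccne1 (1.75 ± 0.18) and Cdc6, which licenses origins (1.68 ± 0.27). Cdk1 (1.94 ± 0.33 in LG, 1.85 ± 0.33 in HG) led the mitosis members of both, followed by Plk1 (1.80) and Cdc25c (1.54) in LG and by Bub1 (1.65) and Cdc25c (1.61) in HG. The smallest called differences were those of Pcna (0.79), Mcm4 (0.80) and Cdt1 (0.85) among S phase members in LG, and the same genes in HG lay between 0.95 and 0.99. Among mitosis members they were those of Nusap1 (0.78), Kif11 (0.85) and Ccnb2 (0.93) in LG and of Foxm1 (0.81), Nusap1 (0.92) and Ccnb2 (0.95) in HG.

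LG mesenchyme stood above the other mesenchymes in a part of the members, and most of the members called higher were of S phase. Against HG mesenchyme 18 members were higher (6.47% of all genes) and 1 lower (7.84%), of which 11 of 17 S phase members and 4 of 26 mitosis members were higher, with medians of 0.67 and 0.51 beside -0.03 over all genes. Ccne1 (1.28 ± 0.18), Rrm2 (1.08 ± 0.15), Mcm3 (1.07 ± 0.16) and Mcm4 (0.88 ± 0.11) were in this group, and Rrm1 (0.41), Tyms (0.51) and Mcm7 (0.54) had its smallest differences. The called mitosis members were Foxm1 (0.75 ± 0.14), Mki67, the antigen used to mark dividing cells (0.60 ± 0.15), Bub1 (0.50 ± 0.15) and Ttk (0.49 ± 0.14). All 17 S phase members were above 0 on each of the 3 slides, as were 26, 26 and 25 mitosis members. Outside the member list, genes of both roles were called higher. Among them were the replication genes Pole (0.91 ± 0.2) and Chaf1b (0.75 ± 0.1) and the mitosis genes Incenp (0.72 ± 0.15) and Espl1 (0.7 ± 0.18). Many genes of both kinds were not called, and the replication gene Gins3 was lower (-0.55 ± 0.15). The surplus of S phase calls against HG mesenchyme was not seen in these other genes.

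Rrm2 was at 4.72, 4.6 and 4.6 in LG mesenchyme and Ccne1 at 4.5, 4.27 and 4.49, against 3.17, 3.10 and 3.14 for Ccne1 in HG mesenchyme. Neither overlapped. Of 10 Schwann and pigment cell markers 7 were lower in LG than in HG mesenchyme, as were 3 of 10 skeletal muscle markers, with mean levels of -1.26 to -1.04 against 1.30 to 1.42 for the former list, and their part in the result was not tested. The count of 19 depended on the setting. It was 39 with only these groups in the fit, 31 with normexp background and 4 with median scaling, and 12 without replicate 1 or 3 of LG mesenchyme or replicate 2 or 3 of HG mesenchyme.

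Against eyelid mesenchyme, LG mesenchyme was higher in 13 members (15.5% of all genes) and lower in 1 (15.7%), with 9 of 17 S phase members but 2 of 26 mitosis members among them (medians 0.45 and 0.13). Ccne1 (0.98 ± 0.18), Mcm4 (0.96 ± 0.11) and Mcm3 (0.93 ± 0.16) led, and the 2 mitosis members were Prc1 (0.60 ± 0.19) and Foxm1 (0.60 ± 0.14). HG mesenchyme differed from eyelid mesenchyme in 1 member upward (11.1%) and 5 downward (11.3%), among them Mcm7 (-0.50 ± 0.14), Cenpa (-0.63 ± 0.22) and Ttk (-0.60 ± 0.14). The 5 lower members are near the share of all genes called lower, and the 1 higher is under the share called higher. The first count of 14 was 8 without replicate 1 of LG mesenchyme, 9 without replicate 2 or 3 of eyelid mesenchyme and 5 with median scaling. The second, of 6, was 2 to 4 with an array left out (3 without HG mesenchyme replicate 1 or 2, 2 without eyelid mesenchyme replicate 3), and 13 with the 75th percentile over probes detected on all arrays (0 higher). The split of 13 and 1 was 4 and 1 with median scaling and 8 and 2 with that percentile.

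The 5 G1 regulators each had a pattern of their own. Ccnd1, the cyclin that answers growth factor signals, was high in both gland epithelia. It was at 7.32, 7.36 and 7.52 in LG epithelium, at 7.73, 7.54 and 7.84 in HG epithelium and at 4.13, 4.05 and 4.5 in eyelid epithelium. The mesenchymes were at 5.75, 5.61 and 5.80 (LG), 4.79, 5.0 and 4.65 (HG) and 4.38, 4.19 and 4.19 (eyelid). The gland epithelia did not overlap with any other group, while eyelid epithelium and eyelid mesenchyme overlapped.

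Ccnd1 was 7.43-fold higher in HG epithelium than in HG mesenchyme (2.89 ± 0.17, adjusted p = 2.2e-10) and 3.19-fold higher in LG epithelium than in LG mesenchyme (1.68 ± 0.17, adjusted p = 8.46e-08). Against eyelid epithelium it was higher by 3.17 ± 0.17 in LG and 3.48 ± 0.17 in HG. LG mesenchyme exceeded HG mesenchyme by 0.91 ± 0.17 and eyelid mesenchyme by 1.47 ± 0.17, and HG mesenchyme exceeded eyelid mesenchyme by 0.56 ± 0.17. Ccnd2, the related D-type cyclin, was higher in the epithelium of HG (1.19 ± 0.19), eyelid (0.69 ± 0.19) and LG (0.55 ± 0.19). It was at 5.95, 6.02 and 5.80 in LG epithelium, at 5.39, 5.50 and 5.54 in HG epithelium and at 5.57, 5.12 and 5.37 in eyelid epithelium, while HG mesenchyme was lowest of the embryonic groups (4.22, 4.39 and 4.26). Ccnd2 was higher in LG mesenchyme than in HG mesenchyme (1.08 ± 0.19) and in eyelid mesenchyme (0.71 ± 0.19), and higher in LG than in eyelid epithelium (0.57 ± 0.19), where HG was not called (0.13 ± 0.19).

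Cdkn1a, an inhibitor that p53 induces and that also rises as keratinocytes mature, was highest in the eyelid. It was at 3.79, 4.07 and 4.0 in eyelid epithelium and at 2.05, 1.73 and 1.92 in eyelid mesenchyme. In LG epithelium it was at -0.17, 0.02 and 0.09, in HG epithelium at -0.52, -0.58 and -0.69, in HG mesenchyme at -0.79, -0.64 and -0.53, and in LG mesenchyme at -0.99, -1.18 and -1.33. No embryonic gland array reached an eyelid array, and HG epithelium and HG mesenchyme overlapped. LG and HG epithelium were lower than eyelid epithelium by 3.97 ± 0.25 and 4.55 ± 0.25, and LG and HG mesenchyme lower than eyelid mesenchyme by 3.07 ± 0.25 and 2.56 ± 0.25. LG epithelium was above LG mesenchyme (1.14 ± 0.25), and eyelid epithelium above eyelid mesenchyme (2.05 ± 0.25). A second Cdkn1a probe, too dim to be kept, gave 1.15 and -0.03 in the same comparisons.

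Cdkn2c, an inhibitor of the D-type cyclin kinases, ran opposite to most members. It was at -1.38, -1.34 and -1.34 in LG epithelium against 1.11, 0.79 and 0.99 in LG mesenchyme, and at -2.08, -1.85 and -1.61 in HG epithelium against 0.40, 0.10 and 0.40 in HG mesenchyme. In the eyelid it was at -0.46, -0.58 and -0.82 against 1.13, 0.73 and 0.80. Epithelium was below mesenchyme without overlap in all 3 tissues, by 2.32 ± 0.20 in LG, 2.15 ± 0.20 in HG and 1.5 ± 0.20 in the eyelid. Both gland epithelia were lower than eyelid epithelium (-0.74 ± 0.20 in LG, -1.23 ± 0.20 in HG).

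Cdkn1b, an inhibitor of cyclin E and cyclin A kinases, showed fewer differences. It was at 3.49, 3.23 and 3.53 in LG epithelium against 2.51, 2.20 and 2.43 in LG mesenchyme (1.03 ± 0.22, adjusted p = 0.000552). In HG it was at 3.33, 2.92 and 3.26 against 3.16, 2.94 and 3.18, and in the eyelid at 2.95, 2.35 and 2.89 against 2.95, 2.57 and 3.02. In HG (0.08 ± 0.22) and in the eyelid (-0.12 ± 0.22) the compartments overlapped and were not called. Cdkn1b was the member that was lower in LG than in HG mesenchyme (-0.71 ± 0.22, adjusted p = 0.0371), where Cdkn2c was higher (0.66) and Cdkn1a was not called (-0.51). It was higher in LG than in eyelid epithelium (0.69) and not called between HG and eyelid epithelium (0.44).

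**Figure D4:**
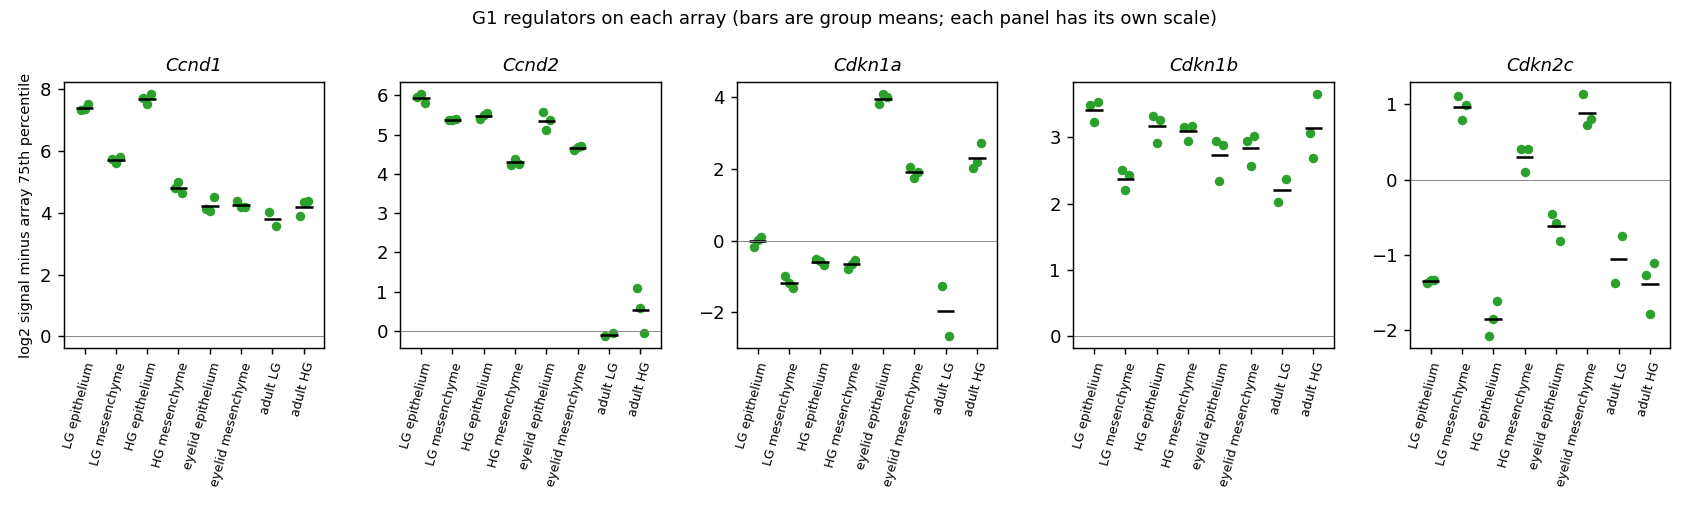
Level (vertical axis, log2 signal minus the array's 75th percentile, a scale of its own in each panel) of the 5 G1 regulators on each array, by group, with bars at group means. Ccnd1 is highest in the gland epithelia, Cdkn1a in eyelid epithelium (3.79 to 4.07) and Cdkn2c in the mesenchymes.

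Adult glands were far below embryonic epithelium for nearly every S phase and mitosis member. In LG 46 of 48 members were lower (38.7% of all genes) and 0 higher (31.2%), and in HG 45 were lower (35.6%) and 2 higher (34.4%), by limma. No member was higher in LG at an unadjusted p under 0.05 either. The embryonic side was separated epithelium and the adult side the whole gland. The fall was larger for mitosis members, with medians of -6.66 in LG and -6.36 in HG, than for S phase members, at -4.19 and -3.54, beside -0.10 and 0.06 over all genes. Where a probe was well above background on no adult array only a bound holds, and with those genes at their bounds (9 mitosis and 1 S phase member in LG, 4 and 0 in HG) the mitosis medians were -6.14 and -6.10 and the S phase medians -4.15 and -3.54. Of the 2 members not called in LG, Tyms differed by 0.10 ± 0.19 and Cdkn2c by 0.29 ± 0.22.

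In HG the S phase members that fell most were Cdt1 and Cdc6, which license origins, and Mcm6. Cdt1 was at 4.81, 4.30 and 4.64 in HG epithelium and at -0.40, -1.21 and -1.46 in adult HG (-5.61 ± 0.23, adjusted p = 2.68e-13). Cdc6 was at 0.46, 0.29 and 0.76 against -4.54, -4.17 and -5.13 (-5.11 ± 0.27). Its probe was well above background on only 1 adult HG array, and its other probe on no adult HG array. Mcm6 was at 7.13, 6.70 and 6.97 against 2.40, 1.83 and 1.35 (-5.07 ± 0.21). The adult arrays were below all embryonic arrays in each case. Pcna (-1.25 ± 0.17), Tyms (-2.0 ± 0.17) and Rrm2 (-2.75 ± 0.15) fell least.

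Among mitosis members Bub1 was at 2.24, 1.86 and 2.19 in HG epithelium and at -5.95, -5.61 and -5.64 in adult HG, at least 74.1-fold lower, since it was well above background on no adult array. Kif11, the motor that pushes spindle poles apart, was at 1.52, 1.47 and 1.4 against -6.24, -5.75 and -6.17 and at least 47.7-fold lower. Cdc25c and Ttk were likewise at least 30.2-fold and 11.6-fold lower. Top2a was at -3.38, -3.03 and -5.12 in adult HG against 3.84, 3.85 and 3.87 (-7.69 ± 0.35, adjusted p = 7.49e-13). Its probe was well above background on only 2 adult HG arrays, so the size of this fall rests partly on a level near background. Cenpf (-3.27 ± 0.79), Mad2l1 (-3.84 ± 0.16) and Foxm1 (-5.06 ± 0.14) had the smallest measured falls, though Cenpf was well above background on only 1 adult HG array. For Cdk1 the probe used fell by 6.55 in HG, while its other probes gave -2.07 and -2.77, and for Tpx2 and Foxm1 the probes used gave -6.77 and -5.06 and the others -2.91 and -3.58.

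In LG, Mcm3, Gins2 and Mcm5 fell most among S phase members (-5.91 ± 0.18, -5.72 ± 0.35 and -5.71 ± 0.29), and E2f1 fell least of those called (-1.55 ± 0.16), followed by Cdc45 (-2.42 ± 0.56) and Mcm2 (-2.60 ± 0.18). The probes of Gins2 and Cdc45 were well above background on only 1 adult LG array. Ccnb1, the cyclin partner of Cdk1 (-8.40 ± 0.35), and Cenpe, a kinetochore motor (-8.35 ± 0.42), fell most among mitosis members. Each of these probes was well above background on only 1 adult LG array. The other probes of Ccnb1, well above background on no adult LG array, gave -6.31 and -4.72. The members well above background on no adult LG array were Cdk1 (at least 86.3-fold lower), Tpx2 (83.1-fold), Kif23 (41.6-fold), Bub1 (32.3-fold), Foxm1 (32-fold), Kif11 (20.3-fold), Cdc25c (13.7-fold), Cdc6 (10.5-fold), Ttk (4.94-fold) and Cenpf (1.87-fold), each figure being a lower bound for the probe used. No other probe of Cdk1, Tpx2, Foxm1 or Cdc6 was well above background on an adult LG array either. Their measured differences were smaller, at -1.54 and -2.08 for the other probes of Cdk1, -3.46 for Tpx2, -2.90 for Foxm1 and -4.75 for Cdc6, where the probes used gave -6.59, -7.56, -5.40 and -4.90. Top2a (-5.03 ± 0.39), Kif20a (-4.51 ± 0.34) and Mad2l1 (-4.83 ± 0.18) were measured in adult LG.

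The 75th percentile of signal was 194 and 139 on the arrays of adult LG beside 313 to 857 on the other 21 arrays, and on the former the 20 brightest probes held 7.86% and 8.87% of the signal beside 2.84% to 4.34%. All 9 immune markers tested were higher in each adult gland than in embryonic epithelium, and 7 of 10 endothelial markers were higher in adult HG, and their part in the result was not tested. Within slides the mitosis median was -6.20 and -6.89 in LG and -6.86, -5.87 and -6.17 in HG. Of the 48 members 27 were well above background on both adult LG arrays and 38 on all adult HG arrays.

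**Figure D5:**
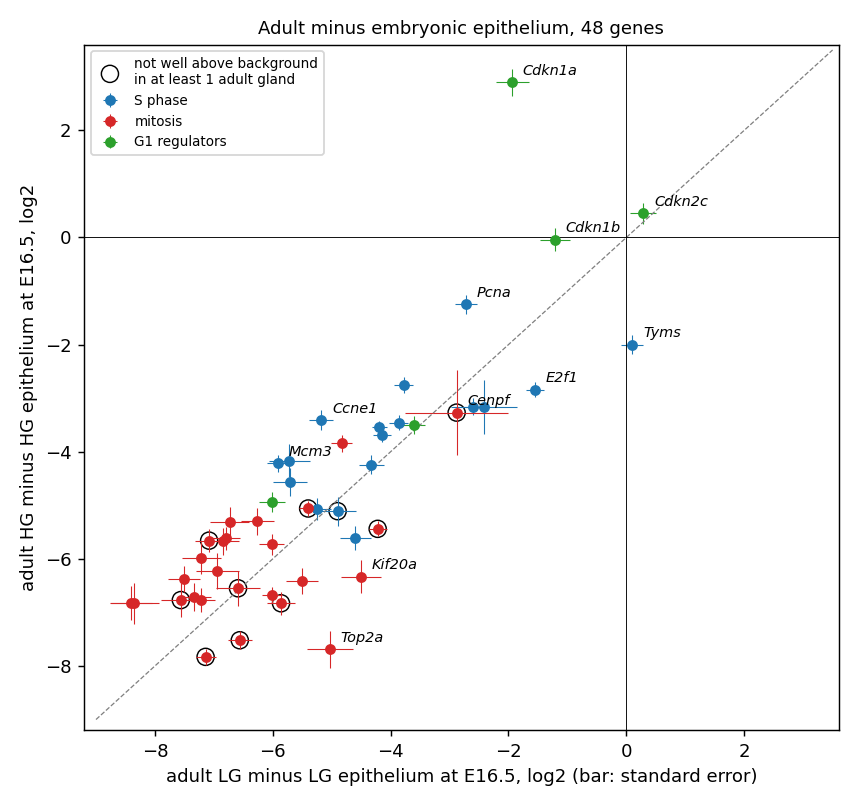
Difference between whole adult gland and embryonic epithelium in log2 for 48 genes, LG on the horizontal and HG on the vertical axis, with standard errors, S phase genes in blue, mitosis genes in red and G1 regulators in green. Circled genes were well above background on no array of at least 1 adult gland, the dashed line marks equal differences, and Cdkn1a and Top2a lie furthest from it.

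Of the 5 G1 regulators 4 were lower in adult LG and 2 in adult HG. Ccnd1 (-3.60 ± 0.19 in LG, -3.50 ± 0.17 in HG) and Ccnd2 (-6.02 ± 0.22 and -4.94 ± 0.19) fell in both glands. Ccnd1 was at 4.03 and 3.57 in adult LG and at 3.89, 4.34 and 4.38 in adult HG, and Ccnd2 at -0.13 and -0.06 against 1.09, 0.59 and -0.05. Cdkn1a was at 2.01, 2.18 and 2.72 in adult HG, 2.90 ± 0.25 above HG epithelium (adjusted p = 6.99e-09), and at -1.26 and -2.66 in adult LG, 1.94 ± 0.28 below LG epithelium (-1.94, adjusted p = 6.73e-06). The Cdkn1a probe used was well above background on only 1 adult LG array. The dim probe of Cdkn1a, well above background on no array of adult LG, adult HG or LG epithelium, gave 0.87 in HG and 0.43 in LG. Cdkn1b fell in LG (-1.21 ± 0.25) and was not called in HG (-0.04 ± 0.22). Cdkn2c was called higher in adult HG (0.45 ± 0.20, adjusted p = 0.0474) although the groups overlapped, and the difference turned to -0.62 (adjusted p = 0.00322) against the mean of HG epithelium and HG mesenchyme.

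Adult LG and adult HG differed in members of each role. Adult LG was higher than adult HG in 12 members (22.4% of all genes) and lower in 22 (33.2%), with 4 higher and 9 lower among S phase members and 8 and 10 among mitosis members (medians -0.48 and -0.38, beside -0.13 over all genes). The count of 12 of 48 higher is near the share of all genes. Well above background on all adult arrays were 14 S phase members, of which 4 were higher and 8 lower, and 8 mitosis members, of which 2 were higher and 4 lower. The other 6 higher and 6 lower calls among mitosis members came from the 18 genes without that, some of them below background in both glands. Top2a was at -1.60 and -0.90 in adult LG and higher by 2.59 ± 0.39 (adjusted p = 1.79e-05), with its probe well above background on only 2 adult HG arrays. Tyms was at 0.86 and 0.19 in adult LG and at -1.4, -1.59 and -1.86 in adult HG, higher by 2.14 ± 0.19 (adjusted p = 1.78e-08). Its adult LG arrays overlapped with LG epithelium, at 0.27, 0.40 and 0.62. Kif20a, a motor of cell division (1.75 ± 0.34), and E2f1 (1.48 ± 0.16) were higher too, and the groups did not overlap for any of these genes.

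Lower in adult LG were Mcm3 (-1.77 ± 0.18), Pcna (-1.67 ± 0.19), Gins2 (-1.53 ± 0.35), Cenpe (-1.74 ± 0.42), Ccnb1 (-1.71 ± 0.35) and Nusap1 (-1.37 ± 0.33). The probes of Gins2, Cenpe, Ccnb1 and Nusap1 were well above background on only 1 adult LG array. With normexp background Cenpe, Ccnb1 and Nusap1 turned to 0.03, 0.03 and 0.16, none of them called. Cdkn1a was lower by 4.26 ± 0.28 (-4.26, adjusted p = 4.09e-10), the widest difference of any member, and its dim probe, well above background on no adult array, gave -0.38. The Cdkn1a probe used was well above background on only 1 adult LG array, so the size of this difference rests partly on a level near background. Bub1, Kif11, Cdc25c and Ttk were well above background on no adult array of either gland, so no fold is given. The other probes of Ccnb1 gave -0.42 and 1.30, and the other probe of Ccne1 gave 0.13 where the probe used gave -1.15.

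This comparison rests on 2 adult LG arrays. Its standard errors use the spread over all 23 arrays, although the median SD of members was larger in the adult glands than in the embryonic groups. Without replicate 2 of adult LG 21 members were called (6 higher and 15 lower), and with only the 2 adult groups in the fit 6. The split of 12 higher and 22 lower was 4 and 22 with median scaling, 7 and 26 with quantile normalization and 17 and 15 with normexp background. Median scaling moved the median of all genes from -0.13 to -0.38.

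The difference between adult and embryo was also tested between the glands, a comparison chosen after seeing the data. For 11 members it was higher in LG than in HG (18.1% of all genes) and for 20 lower (27.1%), with Top2a (2.67 ± 0.52), Tyms (2.09 ± 0.25), Kif20a (1.83 ± 0.46) and E2f1 (1.29 ± 0.21) at the upper end. At the lower end were Cdkn1a (-4.84 ± 0.38, adjusted p = 8.2e-09), Ccne1 (-1.77 ± 0.27), Mcm3 (-1.69 ± 0.25) and Ccnb1 (-1.58 ± 0.47). Other probes gave -0.40 for Ccne1 and -0.57 and 1.34 for Ccnb1, so that 1 of the Ccnb1 probes had the opposite sign, and the dim probe of Cdkn1a gave -0.44. With normexp background Ccnb1 turned to 0.07. The count of 31 fell to 17 without replicate 2 of adult LG and the split of 11 and 20 was 12 and 10 with the 75th percentile over probes detected on all arrays, 4 and 17 with median scaling, 7 and 22 with quantile normalization and 14 and 13 with normexp background.

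Other genes of the same pathways, which were not members, were counted in the same comparisons, and the shares of all genes called there hold for these counts too. In HG epithelium against HG mesenchyme 30 of 35 other replication genes were higher (median 1.14), from Tipin (0.57 ± 0.17) to Mcm10, a replication initiation factor (2.27 ± 0.41). Of 41 other mitosis genes 35 were higher and 1 lower (median 1.2), with Cdca5, which protects cohesin, highest (2.04 ± 0.19) and Pttg1, securin, lower (-0.89 ± 0.23). In LG 23 of the replication genes were higher (median 0.56), and 29 of the mitosis genes were higher and 1 lower (median 0.69). Most of these replication genes were thus called in LG, unlike the S phase members. In the eyelid 2 replication genes were higher and 7 lower (median -0.15), and 7 mitosis genes were lower (median -0.22). In the eyelid Dnmt1, the maintenance DNA methyltransferase, was highest among replication genes (0.68 ± 0.13). Adult LG was lower than LG epithelium in 34 of the 35 and 40 of the 41 genes, with Dtl at least 52.7-fold and Aspm at least 42.1-fold lower. Adult HG was lower than HG epithelium in 35 and 40, with Uhrf1 lowest among replication genes (-7.17 ± 0.26) and Pttg1 higher (2.32 ± 0.23).

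Of 18 genes of the RB, E2F and DREAM group, 9 were higher and 1 lower in HG epithelium than in HG mesenchyme, 8 and 1 in LG and 3 and 1 in the eyelid. E2f8 was the highest (2.16 ± 0.22 in HG, 1.49 ± 0.22 in LG, 0.89 ± 0.22 in eyelid), and Rb1, the retinoblastoma gene, was lower in HG (-0.94 ± 0.13) and LG (-0.31 ± 0.13) and lower in the gland epithelia than in eyelid epithelium (-1.38 ± 0.13 in LG, -1.51 ± 0.13 in HG). Adult LG had 3 higher and 14 lower and adult HG 4 higher and 12 lower against embryonic epithelium. Rbl2, a DREAM pocket protein, was 2.16 ± 0.32 higher in adult LG, and Lin52, of the MuvB core, was 2.67 ± 0.15 higher in adult HG.

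Of 6 other G1 cyclins and kinases, 3 were higher and 2 lower in the epithelium of each gland, with Cdk6 at least 5.51-fold higher in HG and 5.69-fold in LG and Mycn lower by 2.34 ± 0.35 and 2.81 ± 0.35 (-2.34 and -2.81). Of 15 other inhibitors and p53 targets, 8 were higher and 2 lower in eyelid epithelium than in eyelid mesenchyme (25.7% and 25.5% of all genes), with Cdkn2b, a further inhibitor of D-type cyclin kinases, higher by 4.02 ± 0.33 and Cdkn1c lower (-1.36 ± 0.21). In the glands 2 were higher and 5 lower in HG and 2 and 8 in LG. LG and HG epithelium were both lower than eyelid epithelium in Cdkn2b (-6.18 ± 0.33 and -4.56 ± 0.33). In the adult glands 5 were higher and 7 lower in each, where 31.2% (LG) and 34.4% (HG) of all genes were higher and 38.7% and 35.6% lower, so that the count of higher genes is near the share of all genes. Cdkn1c was lowest (-6.70 ± 0.24 in LG, -3.78 ± 0.21 in HG), with Cdkn2b highest in LG (3.05 ± 0.37) and Btg2, an antiproliferative gene, in HG (3.11 ± 0.36).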

How the data were processed

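Total RNA was measured on 23 Agilent 1-colour arrays on 3 slides. The deposited files hold the scanner's intensity values, processed by the authors with Agilent Feature Extraction (11.0.1.1 on slide 1 and 11.5.1.1 on slides 2 and 3, per the file headers; 11.5.1.1 per the submitters' processing notes). The deposited table of the series was also intensity, on a linear scale with no centring (column medians 11.1 to 65.7), and served as an alternative; its log2 values differed from the scanner's by an SD of 0.00594 to 0.0435 per array. Spots of a probe were averaged on the log2 scale without outlier-flagged spots, and each array's 75th percentile was subtracted. A probe was kept where at least 0.5 of its spots were well above background on every array of a group. Of 55681 probes, 27509 matched a RefSeq symbol.

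Models were fitted with limma 3.58.1 (lmFit and eBayes, R 4.3.3) on all 23 arrays, with Benjamini-Hochberg adjustment over 16323 genes. Tables and figures used Python 3.11.15, pandas 2.3.3 and matplotlib 3.10.9. The script was tested on simulated data. The array number limits the precision. A fold marked "at least" sets the brighter group's mean against the higher of the dim probe's own signal and the lowest signal well above background.

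Same-numbered embryonic samples deviated together (residual correlations of 0.171 to 0.578 in 9 comparisons). They also share a slide, so a pairing of samples and an effect of the slide cannot be told apart. In comparisons with adult glands the correlations ran from -0.34 to 0.37. Alternatives were the scaling, background correction, filter, probe choice, slide or replicate block, groups in the fit, and leaving out arrays. Normexp (offset 50) was planned on mean signals and run on median signals.

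The members and all lists were chosen with earlier results of these data known. The rule for named genes was the 3 largest and 3 smallest called differences of each role, all G1 regulators and members below background; in the mesenchyme, adult and between-tissue comparisons the text gives the largest and only some of the smallest.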

Additional observations from a re-analysis of the deposited data

Results flagged for a closer look

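The difference between epithelium and mesenchyme was not the same in the 3 tissues by limma's test of the difference itself. It differed between HG and LG for 5 of 48 members, where 4.03% of all genes were called higher and 4.66% lower. Between HG and eyelid it differed for 43 (19.5% and 16.9% of all genes), and between LG and eyelid for 30 (20.6% and 16.7%). Between HG and eyelid the members flagged were Ccnd1 (2.92 higher in HG), E2f1 (1.37 higher) and Cdkn1a (-1.99). Several members that were not flagged, such as Ccne1 (2.06), had larger differences than E2f1. E2f1 was not called between the HG compartments and was lower in eyelid epithelium. The dim probe of Cdkn1a gave -0.1 here. The change from embryonic epithelium to adult gland differed between LG and HG for 31 members (18.1% and 27.1% of all genes). Top2a (2.67) and Tyms (2.09) were higher in this difference, and Cdkn1a was lower (-4.84). Groups of 2 or 3 arrays were too small for a test of single arrays.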

How the results depend on the processing

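Of the counts of members called, 161 under other settings and 98 with an array left out stayed within 1.5 times the reported count, and 49 and 19 did not. Counts below are called members in either direction, and the cause of a move was not tested unless stated. With probes well above background on all arrays 26 members were tested, and fewer could be called: 24 in HG epithelium against mesenchyme, 17 in LG, 6 in the eyelid, 26 and 24 in LG and HG against eyelid epithelium, 3 in HG against eyelid mesenchyme, 24 and 25 in adult LG and HG against embryonic epithelium, 20 between the adult glands, 23 and 17 for the compartment difference of HG and LG against eyelid, and 17 for the adult-embryonic difference of LG against HG. With calls of at least 2-fold there were 13 in LG epithelium against mesenchyme, 4 in the eyelid, 0 between gland epithelia, 4 in LG against HG mesenchyme, 2 and 1 in LG and HG against eyelid mesenchyme, 21 between the adult glands and 3 for the compartment difference of HG against LG.

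In the order eyelid compartments, gland epithelia, LG against HG mesenchyme, LG and HG against eyelid mesenchyme, and compartment difference of HG against LG and of LG against eyelid, median scaling gave 5, 0, 4, 5, 1, 0 and 17. Leaving out slide 1, an alternative chosen after seeing the data, gave 5, 0, 8, 9, 2, 1 and 19. With only the compared groups in the fit there were 0 between gland epithelia, 39 in LG against HG mesenchyme, 12 in HG against eyelid mesenchyme, 6 between adult glands, 22 for the compartment difference of HG against LG and 14 for the adult-embryonic difference. Normexp gave 31 in LG against HG mesenchyme, and the 75th percentile over detected probes 13 in HG against eyelid mesenchyme. The compartment difference of HG against LG had 13 with normexp, 13 with quantile normalization, 11 with that percentile, 12 with slide as a block and 10 with the replicate block. The replicate block moved no other count by over 1.5 times. Between gland epithelia there were also 0 without the filter and with the mean of a gene's probes. At an unadjusted p under 0.05 by limma these counts of 0 became 0 to 4.

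With each array left out in turn, counts were 41 to 42 (HG compartments), 26 to 30 (LG), 7 to 11 (eyelid), 0 to 1 (gland epithelia), 42 to 46 and 44 to 45 (LG and HG against eyelid epithelium), 12 to 14 (LG against HG mesenchyme), 8 to 12 and 2 to 4 (LG and HG against eyelid mesenchyme), 46 to 46 and 46 to 47 (adult LG and HG), 21 to 37 (adult glands), 4 to 6, 41 to 43 and 23 to 28 (compartment differences of HG against LG, HG against eyelid and LG against eyelid) and 17 to 35 (adult-embryonic difference). Signs turned with normexp for the mitosis median between adult glands (0.31) and in the adult-embryonic difference (0.24), for Cenpe, Ccnb1 and Nusap1 between adult glands (0.03, 0.03 and 0.16) and for Ccnb1 and Cenpe in the adult-embryonic difference (0.07 and 0.24). Cdkn2c in adult HG turned to -0.62 against the mean of embryonic epithelium and mesenchyme. Median scaling moved the median of all genes in adult LG against LG epithelium from -0.10 to -0.57. Levels near background in the adult glands limit what can be read there: 10 members in LG and 4 in HG have a bound only.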
